A study of Mus musculus with 56 samples.

Results

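Transcripts of potassium channels, a chloride channel subunit and subunits of the sodium pump were followed in mouse kidney across day and night. They were Kcnj1, Kcnj10, Kcnj16, Kcnma1, Atp1b1, Fxyd2 and Bsnd, 7 of the 17027 genes in the deposited kidney table, and were taken by name. Of these, 6 passed the filter on low values, a mean of at least 1 TPM (reads per base of transcript, scaled to the same total in every library), which left 12060 genes for testing. Kcnma1, with a mean of 0.858 TPM over 56 libraries, was below it.

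The kidneys came from C57BL/6J females aged 9 weeks, kept pathogen-free on 12 h of light and 12 h of darkness. After 7 days of free access to chow the mice had food only in the daytime (DRF) or only in the nighttime (NRF, the control) for 7 days. Each regimen was sampled at ZT0, ZT4, ZT8, ZT12, ZT16, ZT20 and ZT24, where zeitgeber time (ZT) counts hours from lights on, with 4 mice per group, 14 groups and 56 libraries of polyA RNA. The ZT24 kidneys were collected a full day after those of ZT0, and the labels list every library as a separate sample.

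Potassium channels and the sodium pump share the work of the distal nephron. Kcnj1 encodes ROMK, the channel of the apical membrane that returns potassium to the tubular fluid in the thick ascending limb and secretes it in the collecting duct. Kcnj10 and Kcnj16 encode Kir4.1 and Kir5.1, which join in a basolateral channel of the distal convoluted tubule and its neighbours, and Kcnma1 encodes the pore of the BK channel, opened by calcium and by tubular flow. Atp1b1 and Fxyd2 encode the beta subunit and the gamma regulator of the sodium pump. Bsnd encodes barttin, an accessory subunit of basolateral chloride channels.

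The libraries held 25.73 to 28.5 M reads of recovered genes, and libraries of the same group correlated across genes at 0.97 or more, with 0.99 as the median of 84 pairs. The markers matched the kidney label, since Umod averaged 4271 TPM, Slc34a1 2971 TPM and Aqp2 404 TPM. Of the adrenal markers, Star averaged 4.31 TPM and Cyp11a1 0.0948 TPM, and Cyp21a1 was near 0. The highest liver marker, Ttr, averaged 148 TPM, and Cela1, the only pancreas marker found, 80.8 TPM. The summed level of 5 adipose markers ran from 16.1 to 2697 TPM and that of 5 blood markers from 699 to 8641 TPM. The levels of nephron segment markers differed between libraries. The summed level of 5 thick ascending limb markers ran from 4690 to 8890 TPM under NRF and from 3493 to 7652 TPM under DRF, and that of 6 proximal tubule markers from 3191 to 6745 TPM under NRF and from 3804 to 5724 TPM under DRF. In bulk tissue, fewer cells of a type and less RNA per cell cannot be told apart.

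The sequences before the transcription starts are shown for Kcnj1 and Kcnj16, the 2 of the 6 tested members whose rhythm differed between regimens, and for Atp1b1, the one of the 6 that was rhythmic under both. Each is the 250 bases before a start in RefSeq on GRCm38.p6, read along the gene's own strand. Capitals mark AGAACA and AGGTCA on either strand, where they read as TGTTCT and TGACCT on the other strand. AGAACA is a core motif of glucocorticoid receptor sites, and AGGTCA one shared by nuclear receptors, the REV-ERB and ROR factors among them. The flanking bases that belong to a full site were not searched.
Kcnj1 chr9:32393735-32393984, plus strand: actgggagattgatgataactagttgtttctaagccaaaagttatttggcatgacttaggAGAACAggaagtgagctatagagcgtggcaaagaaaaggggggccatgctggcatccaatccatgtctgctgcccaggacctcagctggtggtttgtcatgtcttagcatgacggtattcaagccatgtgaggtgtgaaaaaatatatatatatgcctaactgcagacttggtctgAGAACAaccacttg
Kcnj16 chr11:110967783-110968032, plus strand: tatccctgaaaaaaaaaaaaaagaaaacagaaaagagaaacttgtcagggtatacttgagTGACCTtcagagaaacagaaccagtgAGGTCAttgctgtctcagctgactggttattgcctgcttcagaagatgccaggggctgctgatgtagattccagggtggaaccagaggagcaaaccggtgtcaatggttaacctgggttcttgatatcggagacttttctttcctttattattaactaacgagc
Atp1b1 chr1:164458356-164458605, minus strand: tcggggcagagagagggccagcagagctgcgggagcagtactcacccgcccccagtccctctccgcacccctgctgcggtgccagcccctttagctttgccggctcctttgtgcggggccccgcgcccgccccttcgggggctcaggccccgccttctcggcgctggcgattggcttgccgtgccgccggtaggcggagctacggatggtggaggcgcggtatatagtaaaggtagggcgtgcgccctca
The Kcnj1 window lies inside the annotated gene, which spans chr9:32372493-32399197, and holds AGAACA 190 and 14 bases before the start. Kcnj16 has 4 starts in RefSeq, and the outermost of them, shown here, holds AGGTCA or its reverse 190 and 164 bases before the start, whereas the other 3 windows hold neither motif. Kcnj10 has 1 AGAACA motif in its window, 191 bases before the start, on the other strand. The windows of Atp1b1 and Kcnma1 hold neither motif, and none of the windows of these 5 genes holds CACGTG, an E-box, or TTATGTAA, a D-box, on either strand. The motifs do not overlap one another in these windows. Of all 32851 promoter windows of the same length, AGAACA was in 16.1%, AGGTCA in 14%, CACGTG in 6.02% and TTATGTAA in 0.819%. Fxyd2 and Bsnd were not searched here.

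Per length of transcript, the sodium pump subunits were the most abundant members. Atp1b1 averaged 3279 TPM over 56 libraries, Fxyd2 1360 TPM, Kcnj16 661 TPM, Kcnj1 409 TPM, Bsnd 118 TPM, Kcnj10 88.1 TPM and Kcnma1 0.858 TPM. Each neighbour in this order kept its place in 56 of 56 libraries. The ranges of Kcnj16 and Kcnj1 nevertheless met across libraries, since the lowest library for Kcnj16 was at 509 TPM and the highest for Kcnj1 at 580 TPM, and so did those of Bsnd, down to 94.4 TPM, and Kcnj10, up to 106 TPM. The levels of Fxyd2 and Atp1b1 rest on summed exon lengths of 4005 and 3081 bases, and the reads of Atp1b1 did not come out as whole numbers at its length, so that the sizes of its changes depend on that length while their direction and timing do not.

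**Figure D1:**
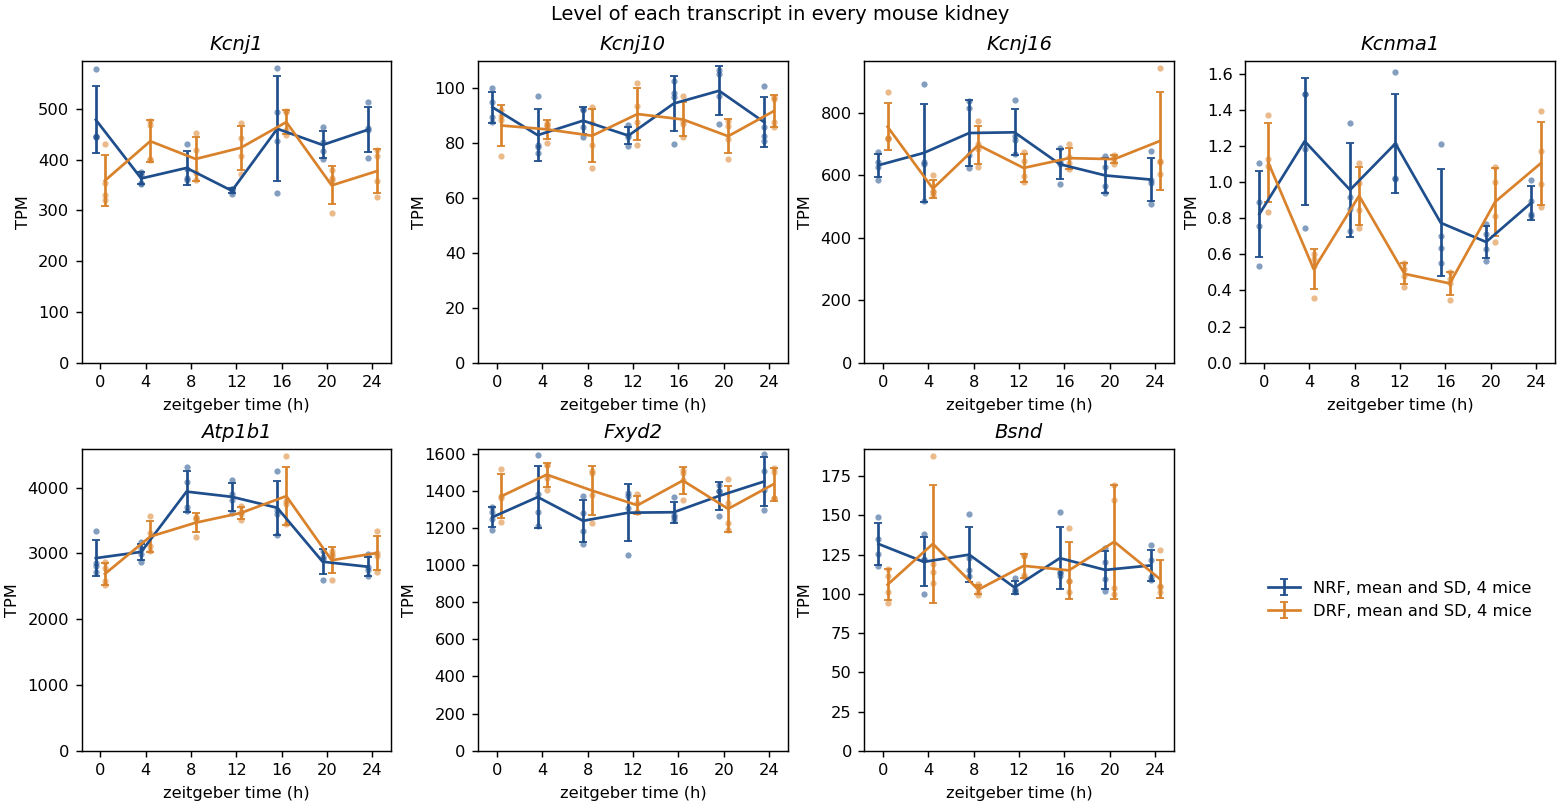
TPM of each member (y axis, from 0) at each zeitgeber time (x axis, hours) under NRF (blue) and DRF (orange). Points are single mice, lines join group means and bars are SD of 4 mice. Atp1b1 had group means of 2687 to 3939 TPM, highest at ZT8 under NRF and at ZT16 under DRF. At ZT8 all its DRF libraries lay below all its NRF libraries. The courses of Kcnj1, Kcnma1 and Atp1b1 under the regimens crossed.

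To ask which members oscillated, a 24-h cosine was fitted to log2(TPM + 1) in each regimen with limma, and p-values were adjusted over all 12060 genes. Under NRF, 4 of the 6 tested members were rhythmic, against 53.7% of all genes tested. These were Kcnj1, Kcnj10, Kcnj16 and Atp1b1. Under DRF, 1 of the 6, Atp1b1, was rhythmic, against 34.8% of all genes tested. The rhythm itself differed between regimens, by the interaction of regimen and 24-h terms, for Kcnj1 and Kcnj16, 2 of 6, against 45.6% of all genes tested.

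Kcnj1 (Entrez 56379), the apical ROMK channel, was higher around the end of the night under NRF. At NRF ZT0 its 4 libraries held 444, 444, 447 and 577 TPM, and at NRF ZT12 they held 332, 337, 342 and 343 TPM. Every ZT0 library was above every ZT12 library, and the ZT12 libraries lay closest together of all groups, with an SD of 4.81 TPM. Here and below, time points compared within a regimen were picked by their means from these same values, so their separation is a description. The NRF amplitude was 0.20 ± 0.048 (SE) on the log2 scale, peaking at 21.1 ± 0.924 h, with an adjusted p of 0.0033.

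Under DRF the course of Kcnj1 had 2 high points. Its libraries held 399, 402, 468 and 476 TPM at ZT4 and 448, 458, 494 and 495 TPM at ZT16. Between and after these, they held 360, 373, 418 and 453 TPM at ZT8 and 294.5, 360, 363 and 378.5 TPM at ZT20. All ZT16 libraries were above all ZT20 libraries, whereas ZT4 and ZT8 overlapped. A 24-h cosine described this course less well than the NRF course, with an amplitude of 0.13 ± 0.045, a peak at 11.3 ± 1.5 h and an adjusted p of 0.0675, and it passed the threshold when libraries were rescaled by median of ratios (adjusted p = 0.041) or expressed as CPM (adjusted p = 0.0276), without ZT4 or ZT8, and without any of 6 single libraries. A 12-h component added to the 24-h terms had an amplitude of 0.17 ± 0.041 with a first peak at 3.46 ± 0.423 h and an adjusted p of 0.00935 by limma, the only one among the 6 tested members, against 25.5% of all genes tested. That call was lost without replicate 1 of every group (adjusted p = 0.105), without ZT4 and without ZT16.

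Because a cosine misses such shapes, any difference among the 7 time points was tested as well. Under DRF this called 3 of 6 members, Kcnj1 (adjusted p = 0.00554), Kcnj16 (adjusted p = 0.0142) and Atp1b1 (adjusted p = 2.35e-05), against 51.5% of all genes tested. Under NRF it called 2 of 6, Kcnj1 (adjusted p = 0.00377) and Atp1b1 (adjusted p = 6.33e-06), against 47.3% of all genes tested.

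The interaction for Kcnj1 had a size of 0.32 ± 0.067 (log2) and an adjusted p of 0.000485. The fitted peak moved by -9.78 ± 1.76 h from NRF to DRF, taken the shorter way round the clock, but the DRF peak belongs to a rhythm that did not pass the test. The interaction was called in every alternative and with any of the 56 libraries left out, with adjusted p-values up to 0.0127 over the alternatives. The 2 highest Kcnj1 libraries, NRF ZT16 replicate 2 at 580 TPM and NRF ZT0 replicate 4 at 577 TPM, had thick ascending limb marker sums of 8890 and 8321 TPM. NRF ZT16 replicate 3 had a sum of 8598 TPM with Kcnj1 at 493 TPM, and NRF ZT20 replicate 3 one of 8047 TPM with Kcnj1 at 434 TPM. DRF ZT4, at a mean of 436 TPM of Kcnj1, had the lowest group mean of the markers, 4579 TPM. A segment score set thick ascending limb, principal cell, and inner medulla and thin limb markers against proximal tubule markers. With this score as a covariate, the interaction of Kcnj1 was 0.29 with an adjusted p of 0.000173. The thick limb markers were themselves rhythmic for 4 of 5 under DRF and 0 of 5 under NRF, against 34.8% and 53.7% of all genes tested. The part of the segment mix in the Kcnj1 values was not tested.

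Kcnj16 (Entrez 16517), the Kir5.1 subunit, ran in the opposite direction to Kcnj1. Its NRF libraries held 669, 714.5, 726.5 and 841 TPM at ZT12 and 509, 575.5, 584 and 677 TPM at ZT24. These overlapped in the highest ZT24 and the lowest ZT12 library. The amplitude was 0.16 ± 0.045 (log2) with a peak at 9.49 ± 1.09 h and an adjusted p of 0.0109. This rhythm was not called when replicate 3, replicate 4 or ZT12 was left out or when any difference among time points was tested (adjusted p = 0.134).

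Under DRF, Kcnj16 was highest at ZT0, with 717, 718, 720 and 868 TPM, and lowest at ZT4, with 536, 545, 549 and 600.3 TPM. No ZT4 library reached a ZT0 library. The 24-h amplitude was 0.065 ± 0.047 with an adjusted p of 0.496, and the interaction was 0.23 ± 0.066 with an adjusted p of 0.0132. The interaction was not called without replicate 3, replicate 4, ZT0 or ZT12, with adjusted p-values up to 0.103 across the alternatives. The 3 highest Kcnj16 libraries held 944 TPM (DRF ZT24 replicate 4), 892 TPM (NRF ZT4 replicate 1) and 868 TPM (DRF ZT0 replicate 2). They were also the 3 with the lowest segment score, in the same order -3.67, -3.78 and -3.7. With that score as a covariate the interaction of Kcnj16 was 0.21 with an adjusted p of 0.0133. The part of the segment mix in the Kcnj16 values was not tested.

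Across the 14 group means of log2(TPM + 1), Kcnj1 and Kcnj16 had a correlation of -0.673, the lowest for Kcnj1 with any member but Kcnma1, at -0.727. Kcnj16 and Kcnma1 correlated at 0.651. The 14 points of the members come from the same libraries, whose segment markers differed, so these are descriptions.

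Kcnj10 (Entrez 16513), the Kir4.1 partner of Kir5.1, moved less. Its NRF libraries held 87, 97.2, 105 and 106 TPM at ZT20 and 78.9, 82.2, 82.7 and 86.5 TPM at ZT12. Every ZT20 library was above every ZT12 library, though by little. The amplitude was 0.11 ± 0.036 with a peak at 19.2 ± 1.16 h and an adjusted p of 0.0407, which lay close to the threshold. Leaving out any of 13 single libraries ended the call (adjusted p up to 0.0922), as did leaving out replicate 2, 3 or 4 of every group (0.231, 0.16 and 0.125) or ZT0, ZT4, ZT12, ZT16 or ZT20 (up to 0.264), and testing any difference among time points (0.0854). Under DRF the amplitude was 0.017 ± 0.035 with an adjusted p of 0.911. The interaction, 0.091 ± 0.05, did not pass the test (adjusted p = 0.282), so the rhythm of Kcnj10 is not shown to differ between regimens, although without ZT8 it did (adjusted p = 0.0317).

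**Figure D2:**
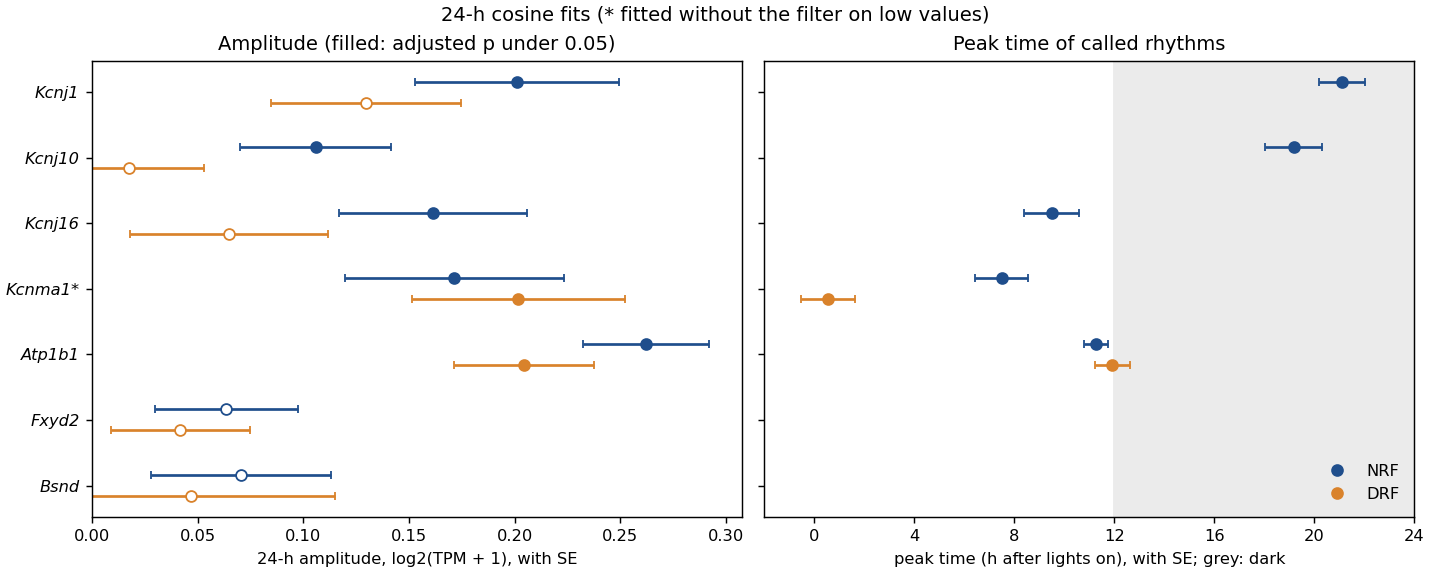
Left, amplitude of the 24-h cosine on log2(TPM + 1) (x axis) for each member (y axis) under NRF (blue) and DRF (orange), with SE; filled points passed the test. Right, peak time in hours after lights on, with SE, for the rhythms that passed, with the dark phase in grey; the NRF peak of Atp1b1 is at 11.3 h and its DRF peak at 11.9 h.

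Kcnma1 (Entrez 16531), the BK channel pore, was covered by 54 to 229 reads per library, and its counting error is therefore larger than that of the other members. Under DRF it was below every NRF library of the same time point at 3 of 7 time points, ZT4, ZT12 and ZT16. Of the 12060 genes above the filter, 18.7%, 22.8% and 11.5% had no overlap between the regimens there. At ZT4 the DRF libraries held 0.355, 0.538, 0.576 and 0.6 TPM and the NRF libraries 0.744, 1.18, 1.49 and 1.49 TPM. At ZT12 the DRF libraries held 0.417, 0.477, 0.521 and 0.552 TPM and the NRF libraries 1.02, 1.02, 1.2 and 1.61 TPM. At ZT16 the highest DRF library, 0.499 TPM, was below the lowest NRF library, 0.55 TPM, although that difference did not pass the test (adjusted p = 0.114 by limma, against 4.52% of genes called).

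Without the filter, 15346 genes were tested, Kcnma1 among them. It was rhythmic under NRF, with an amplitude of 0.17 ± 0.052, a peak at 7.5 ± 1.06 h and an adjusted p of 0.0247, against 45.1% of genes called. Under DRF it had an amplitude of 0.20 ± 0.051, a peak at 0.557 ± 1.08 h and an adjusted p of 0.0113, against 28.8%. Its DRF course also had a 12-h component of 0.22 ± 0.04 with an adjusted p of 0.00073, against 20.3%.

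The Kcnma1 rhythm differed between regimens by 0.29 ± 0.071, with an adjusted p of 0.00279, against 38.9% of genes. Its fitted peak moved by -6.94 ± 1.51 h from NRF to DRF, that is, to an earlier time. Averaged over clock time it was lower under DRF by -0.18 ± 0.042, with an adjusted p of 0.00421, against 8.87%, and at ZT4 and ZT12 by -0.54 ± 0.11 and -0.56 ± 0.11, with adjusted p-values of 0.000168 and 0.000171 by limma, against 23.2% and 16.1%. At this low level the log2(TPM + 1) scale understates the change, and the DRF mean at ZT12 was 0.492 ± 0.0584 TPM (SD, n = 4) against 1.21 ± 0.276 TPM under NRF. Kcnmb4, a regulatory subunit of the BK channel, averaged 0.0561 TPM and was too low to test.

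Atp1b1 (Entrez 11931), the beta subunit of the sodium pump, had the largest amplitude of the 6 tested members under NRF. Its fitted peaks under NRF and DRF lay close in time. The size of its amplitude depends on its annotated length, at which its reads were not whole numbers. Under NRF its libraries held 3647, 3706, 4091 and 4309 TPM at ZT8 and 2658, 2749, 2785 and 2993 TPM at ZT24. Under DRF they held 3450, 3749, 3797 and 4485 TPM at ZT16 and 2520, 2576, 2777 and 2875 TPM at ZT0. In both regimens these groups, picked as the highest and the lowest of 7 group means, did not overlap.

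The amplitude of Atp1b1 was 0.26 ± 0.03 under NRF, peaking at 11.3 ± 0.486 h (adjusted p = 2.16e-07), and 0.20 ± 0.033 under DRF, peaking at 11.9 ± 0.703 h (adjusted p = 0.00014). It was called under both regimens in every alternative and with every library left out, and was rhythmic under both as were 24.5% of all genes tested. Its peak moved by 0.642 ± 0.854 h, with a 95% interval from -1.03 to 2.32 h, and its interaction of 0.07 ± 0.047 had an adjusted p of 0.42. Among the 2953 genes rhythmic under both regimens, 35.8% moved by at most 4 h and 31.4% by at least 8 h.

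Fxyd2 (Entrez 11936), the gamma regulator of the pump, was nearly flat. Its group means lay between 1239 ± 112 TPM at NRF ZT8 and 1488 ± 64.8 TPM at DRF ZT4 (SD, n = 4). The 24-h amplitudes were 0.064 ± 0.034 under NRF (adjusted p = 0.257) and 0.042 ± 0.033 under DRF (adjusted p = 0.551). Averaged over clock time, Fxyd2 was 0.086 ± 0.032 (log2) higher under DRF, with a 95% interval from 0.022 to 0.15 and an adjusted p of 0.0746, so that the difference did not pass the test.

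Bsnd (Entrez 140475), the barttin subunit, showed no rhythm that passed the test. Its amplitudes were 0.07 ± 0.043 under NRF (adjusted p = 0.347) and 0.047 ± 0.068 under DRF (adjusted p = 0.837). The spread within groups was wide, with a coefficient of variation of up to 28.4%. Its 3 highest libraries were DRF ZT4 replicate 4 at 188 TPM and DRF ZT20 replicates 4 and 3 at 169 and 160 TPM, whose segment scores, -1.45, -1.56 and -1.77, ranked 3, 4 and 7 of 56. The part of the segment mix in the Bsnd values was not tested.

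In the regimens' average over the day, 0 of 6 tested members differed by limma, against 10.6% of all genes tested. At an unadjusted p under 0.05 the count was 1 of 6 (Fxyd2), against 2980 of the 12060 genes tested. The mesor difference, DRF minus NRF, was 0.0096 ± 0.043 for Kcnj1, -0.05 ± 0.033 for Kcnj10, -0.021 ± 0.044 for Kcnj16, -0.017 ± 0.03 for Atp1b1 and -0.021 ± 0.054 for Bsnd on the log2 scale.

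At single time points, the regimens differed for 3 of 42 tested pairs of member and time point. At ZT0, Kcnj1 was lower under DRF by -0.41 ± 0.11 (95% interval -0.64 to -0.19, adjusted p = 0.00571 by limma), 1 of 6 members against 18.8% of genes called, and 11.5% called lower. The DRF libraries at ZT0 held 320, 329, 355 and 430 TPM, all below the lowest NRF library at 444 TPM. At ZT12, Kcnj1 was higher under DRF by 0.32 ± 0.11 (0.096 to 0.54, adjusted p = 0.0351), 1 of 6 against 19.3% of genes called and 7.6% called higher, and all 4 DRF libraries, 372, 406, 443 and 472 TPM, were above all NRF libraries.

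At ZT20, Kcnj10 was lower under DRF by -0.26 ± 0.085 (-0.43 to -0.089, adjusted p = 0.0272 by limma), 1 of 6 against 17.3% of genes called and 6.37% called lower, with 74.2, 81.3, 86.1 and 88 TPM under DRF overlapping the lowest NRF library at 87 TPM. Leaving out any of 4 of the 8 ZT20 libraries, DRF replicates 1 and 2 and NRF replicates 1 and 2, ended this call, with adjusted p-values of 0.0526 to 0.105. The ZT12 call of Kcnj1 was ended by leaving out any NRF ZT12 library or DRF ZT12 replicate 2 or 3, with adjusted p-values of 0.051 to 0.126. The ZT0 call of Kcnj1 stood without any single library, though not without replicate 3 of every group (adjusted p = 0.0638). Kcnj1 was just short of the threshold at ZT20, lower under DRF by -0.30 ± 0.11 (adjusted p = 0.0503), where it passed with median-of-ratios rescaling (0.00617), as CPM (0.00393) and with the segment score as a covariate (0.0033).

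Over all genes, the split of these calls moved with the scaling: the share higher under DRF was 38.7% at ZT0, 39.3% at ZT12 and 63.2% at ZT20, against 53.1%, 40.6% and 50.6% with median-of-ratios rescaling and 52.1%, 54.8% and 45.3% as CPM. For the average over the day it was 26.3%, 40.7% and 53.8% in the same order.

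None of the 6 tested members was called at ZT4, ZT8, ZT16 or ZT24 by limma, where 28.4%, 16.1%, 6.07% and 15.5% of genes were. At an unadjusted p under 0.05 the counts there were 2, 2, 1 and 2 of 6. Of the 12060 genes tested, 4618, 3542, 2509 and 3355 had an unadjusted p under 0.05 at these time points. The differences of Kcnj1 and Kcnj16 had opposite signs at 6 of 7 time points. By the plain measure of overlap, the 4 DRF libraries lay wholly above or below the 4 NRF libraries in 12 of 49 pairs of member and time point, Kcnma1 included. These were 4 pairs for Kcnj1, 3 each for Kcnma1 and Bsnd, and 1 each for Kcnj16 and Atp1b1. Over all genes tested, the share was lowest at ZT16, with 11.5%, and ZT20, with 15.3%. It was 18.7% at ZT4 and 21.1% at ZT0, and the remaining time points had 21.7% (ZT24), 22.8% (ZT12) and 23.1% (ZT8).

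**Figure D3:**
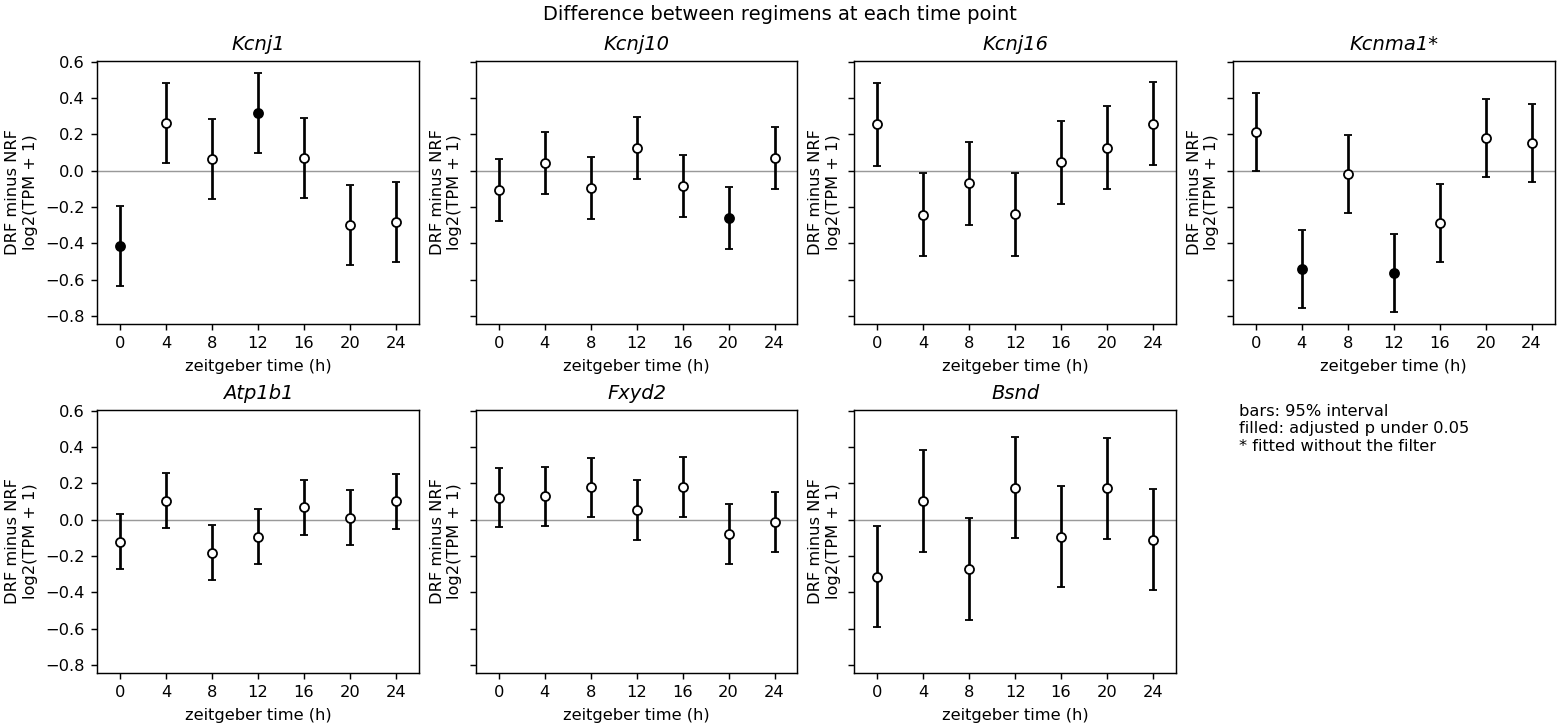
Difference between regimens, DRF minus NRF on log2(TPM + 1) (y axis), at each zeitgeber time (x axis, hours) for each member, with 95% intervals; filled points passed the test after adjustment. Kcnj1 was lower under DRF at ZT0 by -0.41 and higher at ZT12 by 0.32.

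Between ZT0 and ZT24 of the same regimen, 0 of 6 members differed in either regimen by limma. At an unadjusted p under 0.05, Fxyd2 differed under NRF and Atp1b1 under DRF, 1 of 6 each. Over all genes, 0.614% were called under NRF and 0 under DRF. An unadjusted p under 0.05 was found for 874 genes under NRF and 438 under DRF. A 12-h component under NRF was called for 0 of 6 members and for 0.697% of all genes tested. None of the 6 had an unadjusted p under 0.05, against 1364 of the 12060 genes tested.

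Ratios of transcripts within a library, which do not depend on how libraries are scaled, were compared for Kcnj16 to Kcnj10 and for Kcnma1 to Kcnj1 by permutation, with p-values adjusted over a family of 15 tests. The Kcnj16 to Kcnj10 ratio, the transcripts of the Kir5.1 and Kir4.1 subunits, averaged 7.39 under NRF and 7.71 under DRF. Over the day it was 0.029 (log2) higher under DRF, which was not called (adjusted permutation p = 0.704). Under NRF it rose from 6.07 at ZT20 to 8.93 at ZT12, on group means, with an amplitude of 0.26 (log2), and a peak at 8.57 h (adjusted permutation p = 0.00015). The 4 ZT12 libraries, 3.02 to 3.28 on the log2 scale, were all above the 4 ZT20 libraries, 2.54 to 2.66. Under DRF the amplitude was 0.059 with an adjusted permutation p of 0.704 (0.0406 without ZT8). Whether the rhythm of this ratio differed between regimens was not tested. The DRF libraries at ZT0, 2.97 to 3.3, and at ZT8, 3.01 to 3.15, all lay above those at ZT4, 2.64 to 2.8. These time points were picked from the same values, so this is a description.

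The Kcnma1 to Kcnj1 ratio, between the transcripts of the flow-activated and the constitutive secretory channel, moved more. The NRF amplitude was 0.55 with a peak at 8.02 h (adjusted permutation p = 0.00186) and 0.60 under DRF with a peak at 0.374 h (adjusted permutation p = 0.0163). Over the day it was lower under DRF by -0.43 (adjusted permutation p = 0.0241). The DRF amplitude was not called without replicate 3, ZT0, ZT16 or ZT20 (adjusted permutation p of 0.0547 to 0.102), and the difference over the day not without replicate 1, replicate 3, ZT4, ZT12 or ZT16 (0.0792 to 0.335). Without ZT12 that difference was -0.20 and without ZT4 -0.22.

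**Figure D4:**
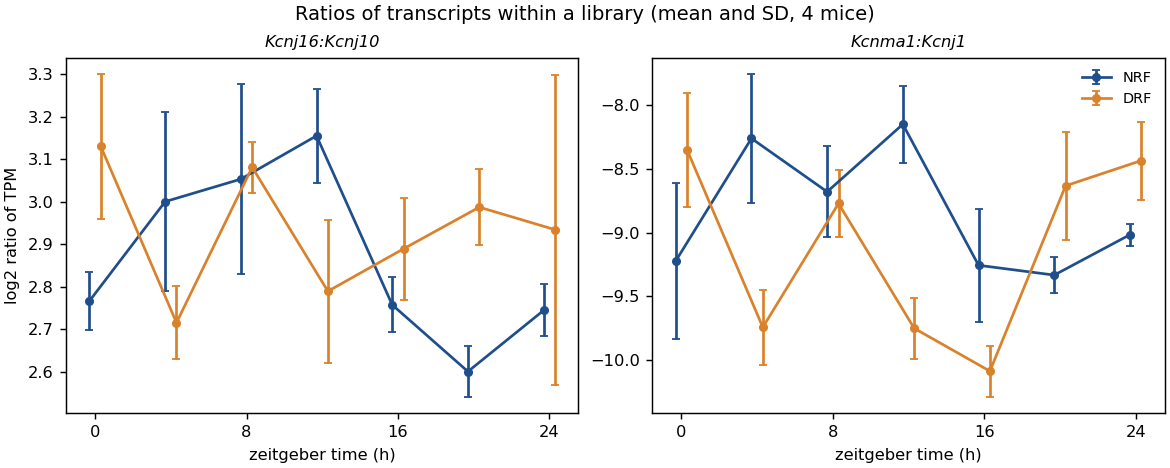
Log2 ratio of TPM within a library (y axis) at each zeitgeber time (x axis, hours) for both pairs of transcripts under NRF (blue) and DRF (orange), as mean and SD of 4 mice. The Kcnj16 to Kcnj10 ratio stood at 3.16 at NRF ZT12 and 2.6 at NRF ZT20.

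Of 75 other channel and pump genes listed for the kidney, 53 were tested. Under NRF 20 of 53 were rhythmic, against 53.7% of all genes tested, under DRF 17 of 53, against 34.8%, and the rhythm differed between regimens for 22 of 53, against 45.6%. Over the day 2 of 53 were lower under DRF, against 7.81% of genes, and 0 were higher. These were Kcnq1, the pore of a voltage-gated channel, by -0.075 ± 0.024 (adjusted p = 0.0403 by limma), and Kcnab2, a channel beta subunit, by -0.18 ± 0.061 (adjusted p = 0.0481). Kcnj15, which encodes Kir4.2, a basolateral channel of the proximal tubule, had its NRF peak at 8.19 ± 0.747 h and its DRF peak at 16 ± 0.817 h. Its peak was thus 7.81 ± 1.11 h later under DRF, with an adjusted p of 9.19e-05 for the interaction.

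Atp12a, the colonic form of the proton and potassium pump, had the largest effect of the list in both rhythms and in the interaction, at a mean of 1.92 TPM, close to the filter. Its libraries held 4.38, 5.7, 7.11 and 7.81 TPM at NRF ZT8 and 0.058, 0.162, 0.163 and 0.269 TPM at DRF ZT8, with no overlap. Its peaks were at 7.13 ± 0.427 h under NRF and 21 ± 0.317 h under DRF, and the interaction had an adjusted p of 2.58e-14.

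The genes whose 14 group means were most like each member's, among 8000 tested genes with a mean of at least 10 TPM, were named by Pearson correlation of log2(TPM + 1). For Kcnj1 they were Dmtn (0.938), Pno1 (0.927) and Ube2n (0.921), and for Kcnj16 they were Rasd1 (0.938), Rgs2 (0.933) and Vwa8 (0.931). For Atp1b1 they were Herpud1 (0.959), Ndel1 (0.936) and Cobll1 (0.933), and for Fxyd2 they were Atp5j2 (0.963), Cox8a (0.953) and Pet100 (0.94). For Kcnma1 they were Naaa (0.918), Atp9a (0.914) and Smc4 (0.906), for Bsnd Chtop (0.886), Prrc1 (0.875) and Fermt1 (0.855), and for Kcnj10 Slc10a2 (0.791), Far1 (0.779) and Fndc3a (0.768). No member was among the 3 closest genes of another, and Kcnma1, below 10 TPM, was not among the candidates.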

How the data were processed

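The deposited table held 1 value per gene and library for 17027 genes, labelled TPM by the authors. The values were not on a linear scale: within a library each was log2(CPM + 1) divided by a gene length, and the authors scaled each column to nearly the same sum (999145 to 999753). The submitters' processing notes name HISAT2, Bowtie2, RSEM, mm10 and GRCm38.p6, and which step used which is not given in the sources used here. Reads were recovered by solving each column for its scale and library size with summed exon lengths of the GENCODE annotation of GRCm38 or, for 969 genes, a length found by search. Of all genes, 90.1% gave whole reads, within 0.1 of a whole number for 99.1% of their values, and linear TPM was rebuilt from reads and length. Another 1232 genes, Atp1b1 among them, gave fractional reads and kept their annotated length when TPM was rebuilt. Of these only members were tested, so Atp1b1 was tested and the others are in no count of genes tested. The 450 genes with no usable length were left out. Since the deposited values were not counts, no count model was used.

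The labels placed all 56 libraries, and 1 NRF ZT24 column carried a number that is not among the labelled replicates and was kept as a replicate with no number. Rhythms, contrasts of the 14 group means and 12-h terms were fitted with limma 3.58.1 (R 4.3.3, eBayes with trend) to log2(TPM + 1) of 12060 genes with a mean of at least 1 TPM, and p-values were adjusted by Benjamini-Hochberg over all of them, with 0.05 as the threshold. ZT0 and ZT24 shared 1 weight in the mesor, the mean over clock time. Ratios were tested with 2-sided permutation tests of 100000 resamples, for which the smallest p is 1e-05, adjusted over 15 tests on 5 ratios, of which 2 ratios are reported here. The fits were tested on simulated data with known changes. SE is given after ± unless SD is named. All p-values measure the spread between the libraries, and the labels do not say more about the animals than their group. Alternatives were median-of-ratios rescaling, CPM, a pseudocount of 0.1, other filters, robust empirical Bayes, a replicate block, a segment marker score as covariate, libraries or time points left out, a test of any difference among time points and, chosen after seeing the data, rescaling together with the marker score. The members and gene lists were chosen with earlier results of these data known. By the rule for named genes all 7 members were named, direct partners could be, and of the other list genes the 3 with the largest effect among those called in a comparison, and for likeness the 3 genes with the highest correlation.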

Additional observations from a re-analysis of the deposited data

Results flagged for a closer look

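The 24-h rhythm differed between DRF and NRF, by a test of the difference itself, for Kcnj1 (adjusted p = 0.000485 by limma) and Kcnj16 (adjusted p = 0.0132), and for Kcnma1 in the fit with no filter on low values (adjusted p = 0.00279). Among 98 groups of 4 libraries, 14 for each of 7 members, 11 held a library far from the other 3, with a gap to the nearest other library above Dixon's 95% critical value. Chance gives about 1 in 20 for independent groups, but these groups share the same 56 libraries. The share over all genes is not given here, so the count is a description. The far library of Kcnj1 was at 577 TPM in NRF ZT0. Those of Kcnj10 were at 96.9 TPM in NRF ZT4 and 79.7 TPM in DRF ZT4. Those of Kcnj16 were at 868 TPM in DRF ZT0 and 944 TPM in DRF ZT24. That of Atp1b1 was at 3246 TPM in DRF ZT8. For Bsnd there were 5, at 110 TPM in NRF ZT12, 152 TPM in NRF ZT16, 188 TPM in DRF ZT4, 142 TPM in DRF ZT16 and 128 TPM in DRF ZT24. All 5 Bsnd libraries were high rather than low within their groups. The Kcnj1 library in NRF ZT0 had the highest thick ascending limb marker sum of its group, 8321 TPM against 5053 to 5517 TPM in the others, and the part of those cells in the value was not tested.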

How the results depend on the processing

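With 1 choice changed at a time, no member changed direction in a call. Of 4 rhythmic members under NRF, 2 stood without ZT12 and under the test of any difference among time points, 3 without ZT0, ZT4, ZT16 or ZT20, 5 of 7 with no filter (Kcnma1 added), and 2 to 4 with a replicate or library left out. Under DRF, 1 member was rhythmic, 2 under median-of-ratios rescaling, CPM, no filter (7 members tested), without ZT4 and without ZT8, 3 by any difference among time points, and 1 to 2 with a replicate or library left out. The interaction was called for 2, for 3 with no filter (Kcnma1 added) and without ZT8 (Kcnj10 added), for 1 without ZT0 or ZT12, and for 1 to 2 with a replicate or library left out. The average over the day was called for 0, for 1 with no filter (Kcnma1), and for 1 (Fxyd2) with the segment score, without ZT20 and with rescaling and segment score together, and for 0 to 1 with a replicate or library left out. Of the time point differences 3 were called, 8 under median-of-ratios rescaling, 7 as CPM, 5 with no filter, 7 with the segment score, 11 with rescaling and score together, and 1 to 6 with a replicate or library left out, 6 without NRF ZT16 replicate 1 or 2 and 1 without replicate 3. The 12-h component under DRF was called for 1 member, for 2 under median-of-ratios rescaling, CPM, no filter, the segment score, both together, and without ZT12, ZT20 or ZT24, for 0 without ZT4, and for 0 to 2 with a replicate or library left out. Of 15 ratio tests 10 were called, and 6 to 10 with a replicate left out. The causes were not tested.

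The replicate numbers did not pair the samples: deviations of 351 same-numbered pairs had a median correlation of -0.00458 and a lowest of -0.786. With the replicate block, 3 members were rhythmic under NRF, without Kcnj10 (adjusted p = 0.0585 by limma), and 1 under DRF, and the counts of the other tests were 2 for the interaction, 0 for the average over the day, 3 for time points and 1 for the 12-h component under DRF. Kcnma1, at 54 to 229 reads per library, was limited most by depth.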
